A study of Mus musculus with 7 samples.

Results

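The regions described here were the H3K9me3 peaks that lay in long noncoding RNA (lncRNA) genes of Setdb1 cKO iMEFs. A peak was counted if it was on chromosomes 1 to 19, shared at least 1 bp with the body of a gene typed lincRNA or processed_transcript, and shared none with a protein-coding gene body. The type antisense belonged to the same rule, but 0 genes of GENCODE M1 carried it as their gene type. The rule left 3669 lncRNA genes, 1232 lincRNA and 2437 processed_transcript, and it took 653 of 21957 autosomal WT peaks and 168 of 3668 autosomal KO peaks. Together these were 821 of the 26965 peaks of both lists. A further 234 WT and 85 KO peaks touched an lncRNA gene and a coding gene at once and were not counted.

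H3K9me3, histone H3 trimethylated at lysine 9, was profiled by ChIP-seq of chromatin digested with micrococcal nuclease. Both libraries came from immortalized mouse embryonic fibroblasts of one recloned line that carried a conditional Setdb1 allele. The WT cells were left untreated, and the KO cells received 4-hydroxytamoxifen (4OHT) for 4 days and were harvested on day 7. Each group had 1 H3K9me3 library, so WT and KO are set side by side without replicates and without p-values, and the other 5 of the 7 samples entered no comparison. The lists measure neither RNA nor the Setdb1 gene itself, so the deletion was not checked, and 4OHT treatment, time in culture and loss of Setdb1 cannot be told apart.

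Long noncoding RNAs are long transcripts that encode no known protein, and many are spliced and capped like messenger RNAs. H3K9me3 is the mark of silent heterochromatin: Setdb1 places it on many retroviral and other dispersed repeats, and the Suv39h enzymes place it on tandem satellite repeats near centromeres. The body of an lncRNA gene, most of it intron, holds many such repeats, so a mark within it need not bear on the RNA itself.

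The sequences of a few peaks are given first because they differ in kind. They are the plus strand of NCBIM37 (mm9), 5′ to 3′. The first is the highest-scoring WT peak that overlapped a KO peak, in an intron of Gm13822 (chr5:115372486-115372617). Capitals mark bases within 12-base words that also occur, on either strand, in the body of Gm16869, a lincRNA on chromosome 9.

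Gm13822 retained peak: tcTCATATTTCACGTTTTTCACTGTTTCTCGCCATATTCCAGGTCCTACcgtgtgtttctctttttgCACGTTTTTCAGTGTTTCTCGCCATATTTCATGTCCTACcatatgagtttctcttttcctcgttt

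The next pair are neighbouring 234-base stretches from the highest-scoring retained WT peak of Gm16869 itself (chr9:3033083-3033316 and chr9:3033317-3033550), shown because they are units of 1 tandem array. Capitals mark the 23 positions at which they differ, and 211 of 234 positions, or 90.2%, are the same.

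Gm16869 unit 1: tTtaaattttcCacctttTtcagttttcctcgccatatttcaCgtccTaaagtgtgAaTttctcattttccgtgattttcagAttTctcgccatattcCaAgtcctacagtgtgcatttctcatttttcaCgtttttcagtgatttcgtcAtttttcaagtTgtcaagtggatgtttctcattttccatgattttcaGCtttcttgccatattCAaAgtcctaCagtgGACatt
Gm16869 unit 2: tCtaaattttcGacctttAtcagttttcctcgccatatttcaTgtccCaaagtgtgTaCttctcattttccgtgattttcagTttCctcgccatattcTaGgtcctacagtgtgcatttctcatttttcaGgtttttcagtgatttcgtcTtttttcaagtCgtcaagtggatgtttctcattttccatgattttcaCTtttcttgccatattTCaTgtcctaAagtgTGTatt

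A short retained peak in 2610005L07Rik (chr8:19924810-19924940) and a retained peak in Tdrd5 (chr1:158232067-158232231), both in introns, are shown to compare how much of a WT peak the KO peak covered. Capitals mark the bases that were also inside the KO peak, 109 of 131 and 64 of 165.

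2610005L07Rik retained peak: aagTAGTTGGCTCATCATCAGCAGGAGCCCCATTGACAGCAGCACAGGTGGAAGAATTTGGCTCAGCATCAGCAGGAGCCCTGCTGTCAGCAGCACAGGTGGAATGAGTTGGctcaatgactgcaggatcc
Tdrd5 retained peak: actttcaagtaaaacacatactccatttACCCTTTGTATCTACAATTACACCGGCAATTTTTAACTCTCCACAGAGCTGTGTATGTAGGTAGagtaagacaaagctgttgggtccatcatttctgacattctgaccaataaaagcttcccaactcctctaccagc

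Of the WT peaks without an overlapping KO peak, the highest-scoring one lay in Gm16724 (chr17:71676217-71676476). It is set beside a peak of Airn (chr17:13017624-13017896) and a peak of Six3os1 (chr17:86004521-86004670), genes that held several such peaks. Capitals mark CpG dinucleotides, of which these 3 sequences have 1, 1 and 0. All 3 peaks lay in introns.

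Gm16724 lost peak: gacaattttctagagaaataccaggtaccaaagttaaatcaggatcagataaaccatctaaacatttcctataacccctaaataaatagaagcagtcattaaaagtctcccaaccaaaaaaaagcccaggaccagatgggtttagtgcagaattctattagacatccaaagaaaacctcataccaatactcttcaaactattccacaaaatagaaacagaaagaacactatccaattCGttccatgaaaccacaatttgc
Airn lost peak: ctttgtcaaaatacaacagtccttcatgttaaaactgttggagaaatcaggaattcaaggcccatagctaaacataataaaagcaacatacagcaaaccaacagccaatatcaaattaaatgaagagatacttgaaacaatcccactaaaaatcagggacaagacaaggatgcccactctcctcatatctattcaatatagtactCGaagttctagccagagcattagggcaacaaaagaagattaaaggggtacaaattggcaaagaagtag
Six3os1 lost peak: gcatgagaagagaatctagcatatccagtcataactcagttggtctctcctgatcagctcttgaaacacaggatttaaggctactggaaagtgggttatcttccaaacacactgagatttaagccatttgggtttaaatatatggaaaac

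The highest-scoring KO peak that overlapped no WT peak lay in an exon of Gm7592 (chr1:87448054-87448129), and a further one in an intron of A830012C17Rik (chr4:4095235-4095302). They are shown for their small width of 76 and 68 bp, and neither has a CpG.

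Gm7592 KO-only peak: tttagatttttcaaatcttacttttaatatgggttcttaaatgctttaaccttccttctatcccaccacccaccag
A830012C17Rik KO-only peak: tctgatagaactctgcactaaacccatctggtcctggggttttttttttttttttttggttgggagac

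To ask how far H3K9me3 in lncRNA genes depended on Setdb1, the 2 lists were compared by number, by covered length and by overlap. The KO list held 168 lncRNA peaks against 653 in WT, 25.7% as many (95% Wilson-based interval 21.7 to 30.5), and they covered 29.3 kb against 165 kb, or 17.8%. In protein-coding gene bodies the KO list had 19.4% as many peaks (18.05 to 20.8), and in the rest of the autosomes 15.6% (14.98 to 16.3). The intervals of these classes did not overlap, but they cover counting error only and 1 library per group gives no test. Thus lncRNA peaks were fewer in KO, as in both other classes, with the highest KO number relative to WT among the 3. lncRNA gene bodies outside coding genes make up 47.9 Mb, 2.00% of the autosomes, and held 2.97% of the WT peaks and 4.58% of the KO peaks. This was 13.6 WT peaks per Mb against 4.86 in coding bodies and 11.9 elsewhere, and 3.51 KO peaks per Mb against 0.943 and 1.86. Of the lncRNA peaks, 182 WT and 102 KO lay in 4 loci of 33.9 to 745 kb described below. The densities are thus not even over lncRNA genes.

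A WT peak is called retained here if it shared at least 1 bp with any KO peak, and lost otherwise. Of the 653 WT lncRNA peaks 52 were retained, 7.96% (6.12 to 10.3), where 2.33% of all autosomal WT peaks were. Conversely, 67 of 168 KO lncRNA peaks met a WT peak, 39.9% (32.8 to 47.4), against 15.1% of all autosomal KO peaks. Of these 67 KO peaks, 7 met only WT peaks that also touched a coding gene. Within 1 kb of a KO peak lay 109 WT peaks, 16.7% against 5.75% for all, and within 1 kb of a WT peak lay 106 KO peaks, 63.1% against 29.1%. Retention in coding bodies was 2.59% and in the rest of the autosomes 2.04%, so the lncRNA peaks stood above both classes.

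These retained peaks were not spread over the lncRNA genes. Overlapping lncRNA genes were joined into loci, of which 206 held a WT peak, 47 a KO peak, 31 both and 13 a retained peak. In 4 loci there were 10 or more KO peaks each, a limit set after their values were seen. The next by KO peaks were the loci of Gm16025, with 5 WT and 8 KO peaks, and Gm7592, with 9 and 7. The 4 loci held 182 WT peaks (27.9%), 102 KO peaks (60.7%) and 42 of the 52 retained peaks (80.8%). Within them 23.1% of WT peaks were retained (17.6 to 29.7). In all other loci 10 of 471 were, 2.12% (1.16 to 3.86). The KO number was 56.0% of the WT number in the 4 loci and 14.01% elsewhere. The loci were picked by their number of KO peaks, which a retained peak requires, so retention is lower without them by construction. The autosomal share of 2.33% was not trimmed in this way and is not to be set against the 2.12%.

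**Figure D1:**
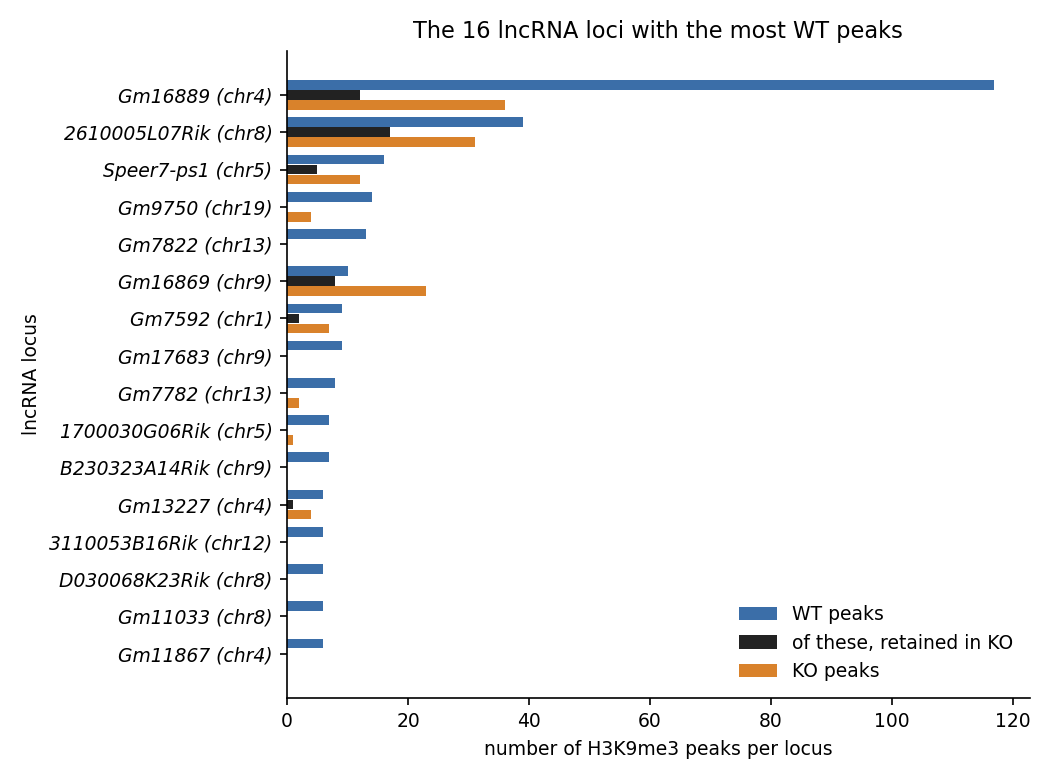
Number of H3K9me3 peaks (horizontal axis) in each of the 16 lncRNA loci with the most WT peaks, 1 library per group. Blue bars are WT peaks, black bars the WT peaks that overlapped a KO peak and orange bars KO peaks. The Gm16889 locus had 117 WT and 36 KO peaks, and the Gm16869 locus 10 and 23.

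The largest count was in the Gm16889 locus (chr4:146120857-146866310), 745 kb with 7 lncRNA genes interleaved with 6 coding gene models, among them the zinc-finger gene Zfp600. It held 117 WT peaks and 36 KO peaks, and 12 WT peaks were retained, 10.3% (5.96 to 17.1). Pileup, the number of fragments that cover the summit, was 9 to 21 in WT and 9 to 18 in KO with a median of 12 in both. The peaks were wider in WT, with a median of 180 bp against 95 bp in KO, and covered 28.9 kb against 5.12 kb. Counting every peak of the locus, also those that touched a coding gene, gave 178 WT and 44 KO peaks, which covered 8.17% and 0.794% of its length. Here the KO peaks were fewer and shorter than the WT peaks. The median raw pileup was the same, near the lowest value of 9, on scales that were not matched between the libraries.

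Among the genes of this locus, the lincRNA Gm16889 held 85 WT and 22 KO peaks with 5 retained, and Gm17317, which runs antisense within it, held 68 and 16 with 4 retained. Gm17452 held 33 and 15, with 7 retained, and includes a retained WT peak of 1949 bp (chr4:146364426-146366374), 17 fragments high and 7.78-fold enriched over the local background of 1.31 fragments. The short processed transcript gene Gm13150 held 11 WT and 7 KO peaks in 16.996 kb, with 5 WT peaks retained. Sequence copies were counted as the median number of exact genomic matches of a peak's 31-base words. The median was 4 for the WT peaks of the locus, or 3 with only copies within 1 Mb of it counted, and 74 of 117 WT peaks had every copy there. A read from such sequence was placed at random among its copies by the authors, so peaks in 1 copy of this cluster can include reads from the others.

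The locus of 2610005L07Rik (chr8:19858191-20020413), 162 kb with 4 lncRNA genes, had 39 WT and 31 KO peaks. Of the WT peaks 17 were retained, 43.6% (29.3 to 59.0), and 28 of the 31 KO peaks lay within 1 kb of a WT peak. Pileups spanned 16 to 75 in WT and 17 to 72 in KO, with medians of 28 and 31. The size of each library is not known, so these like ranges of raw pileup do not show equal signal. The local background was high as well, with a median of 8.30 fragments in WT and 10.5 in KO against 1.31 over all WT lncRNA peaks. Fold enrichment was therefore modest, 3.04 and 2.92. The tallest WT peak of the locus (chr8:19926626-19927048) was 423 bp wide and 75 fragments high, 3.001-fold over background. The same peaks fell in 2610005L07Rik, AC152164.1 and Gm17279, which overlap one another, so their counts of 39, 39 and 38 WT peaks are not separate evidence. Here the number of peaks and the covered length (12.9 kb and 7.81 kb) changed less between WT and KO than in the Gm16889 locus, with no test of the difference.

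Speer7-ps1 (chr5:15186528-15220414) belongs to a multicopy gene family and is typed lincRNA in GENCODE M1. It had 16 WT and 12 KO peaks in 33.9 kb, 5 WT peaks retained, 31.3% (14.2 to 55.6), with pileups of 21 to 50 in WT and 20 to 49 in KO. The covered length was 2.67 kb in WT and 2.49 kb in KO, almost equal. The KO list included a peak of 34 fragments, 4.04-fold enriched, that missed the nearest WT peak by 212 bp (chr5:15201088-15201213). The WT background was again high, with a median of 9.97 fragments.

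Gm16869 (chr9:3000282-3038313) starts near the centromeric end of the assembled chromosome 9 and consists of tandem repeats. Its sequence matched itself best when moved by 234 bases, with 71.4% equal bases, among moves of 20 to 600 bases whose median was 31.3%. In the 3 other dense loci the best move reached 27.6 to 28.2%. The repeat length of 234 is that of the mouse major satellite, the tandem repeat of pericentric heterochromatin. Of the 4 loci it had the fewest WT peaks, 10, and all 10 had a pileup of 140, the highest value in the WT list. The 23 KO peaks had pileups of 93 to 130, and 130 was the highest value in the KO list. Fold enrichment was only 1.56 to 1.81 in WT and 1.56 to 2.37 in KO, with the local background at a median of 84.5 and 72.0 fragments. Why the folds were low was not tested.

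The larger KO number in Gm16869 went with narrower peaks and a smaller covered length. With the peaks over its 12 small coding gene models included, 32 WT peaks covered 91.3% of the gene and 43 KO peaks covered 39.8%. Of these, 26 WT peaks (81.3%) overlapped a KO peak and all 43 KO peaks overlapped a WT peak. Peaks were thus called over the satellite array in both libraries, in wide blocks in WT and in shorter pieces in KO. Satellite arrays are only partly assembled in mm9, so the pileups here were not set against those of other loci.

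**Figure D2:**
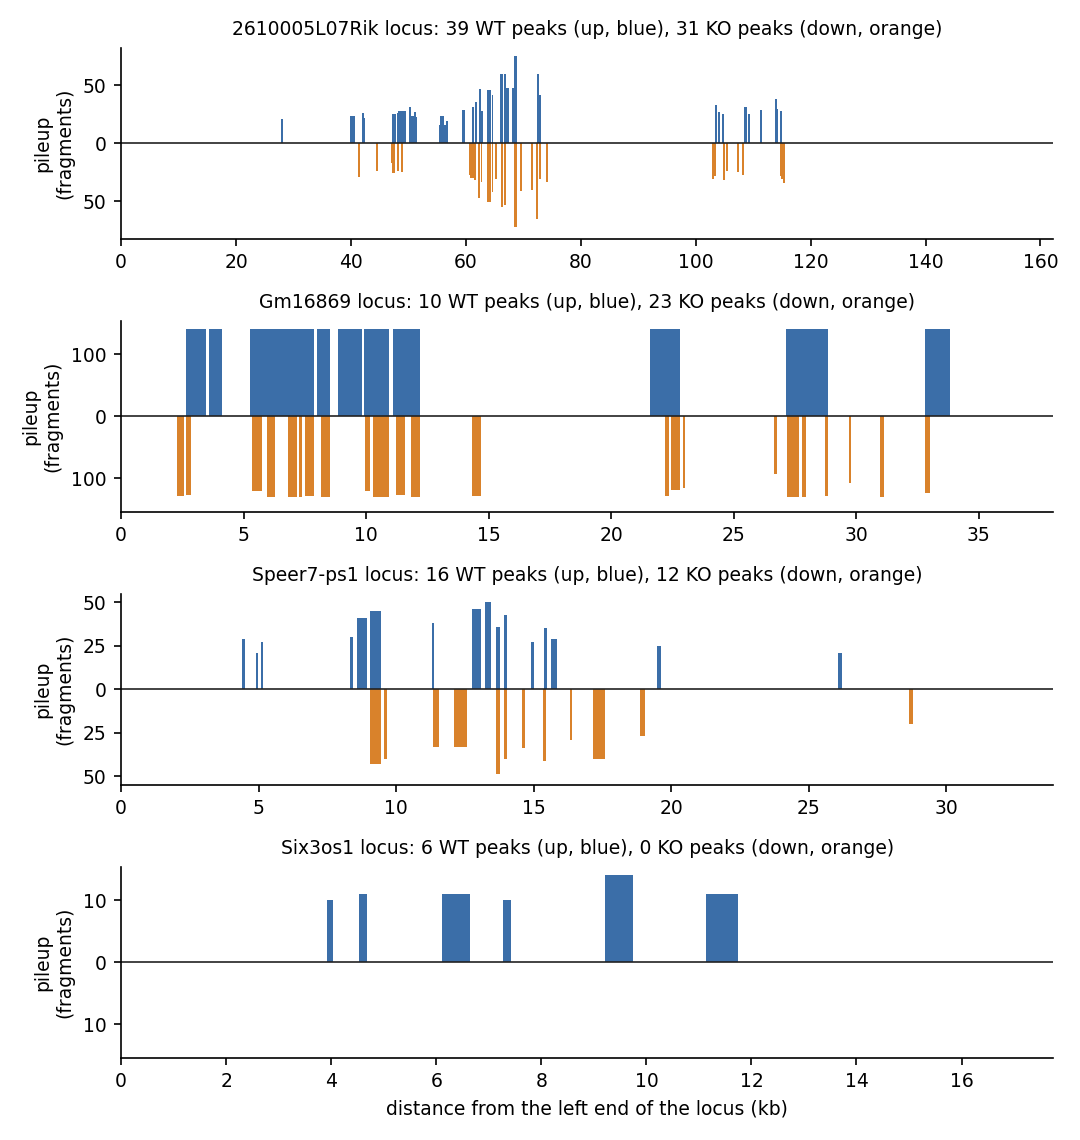
Peaks along 4 lncRNA loci, with distance from the left end of the locus in kb on the horizontal axis and pileup in fragments on the vertical axis. WT peaks (blue) point up and KO peaks (orange) point down, bars span the peak (drawn no narrower than 0.2% of the locus), and peaks that touch a coding gene are not drawn. In 2610005L07Rik and Speer7-ps1 both lists place peaks in the same stretches at like raw pileup, not scaled for library size. In Gm16869 the KO peaks are shorter in length, and Six3os1 has 6 WT peaks and 0 KO peaks.

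Outside the 4 loci, 10 WT peaks in 9 genes were retained. The peak of Gm13822 stood apart, with a pileup of 133 in WT and 124 in KO over backgrounds of 51.3 and 52.4 fragments, and its score (the −log10 of the q-value) of 15.7 was the highest of all retained WT lncRNA peaks. By 31-base words it is single-copy. Yet 45 of its 121 words of 12 bases, 37.2%, occur in the Gm16869 satellite body, with a longest exact run of 26 bases. Among the 643 WT lncRNA peaks outside Gm16869 the next highest share was 3.30% and the median was 0. This comparison was made after the sequence had been seen. The best-scoring retained peak outside the 4 loci thus shared short words with the satellite array of Gm16869, which no other WT lncRNA peak did to a like extent.

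The other 9 retained peaks were low, with WT pileups of 9 to 19. In Tdrd5, typed lincRNA here although the symbol is that of a Tudor-domain gene, the pileup was 9 in both lists and the KO peak was 64 bp wide against 165 bp. A neighbouring WT peak of Tdrd5, 541 bp wide with a pileup of 12, was lost and lay 188 bp from the same KO peak. Gm17325 had pileups of 10 in WT and 13 in KO, AI314831 had 10 and 9, 9530036O11Rik had 11 and 9, and 4930571N24Rik had 10 and 12. Gm13227 had 19 and 12, and Gm16025 had 15 and 21. Gm7592 held 2 retained peaks, with pileups of 12 and 15 in WT and 15 and 14 in KO. Most of these heights lie close to 9, the lowest pileup in either list.

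In all, 62 pairs of overlapping WT and KO peaks were formed by the 52 retained WT peaks. The median pileup was 35.5 in WT and 32.5 in KO, and it was lower in KO in 41 pairs, equal in 5 and higher in 16. The median fold enrichment was 3.02 and 3.18, lower in KO in 29 pairs and higher in 33. The KO peak was narrower, with a median KO to WT width of 0.630. A WT peak of Gm16869 of 2638 bp entered 5 of the pairs, each time with a shorter KO peak, and 17 pairs sat at 140, the highest WT pileup. No KO pileup exceeded 130, so these 17 pairs could only be lower in KO. Library sizes are not part of the lists, so whether the 2 pileup scales are alike is not known. Pileups are therefore not ranked against the widths.

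**Figure D3:**
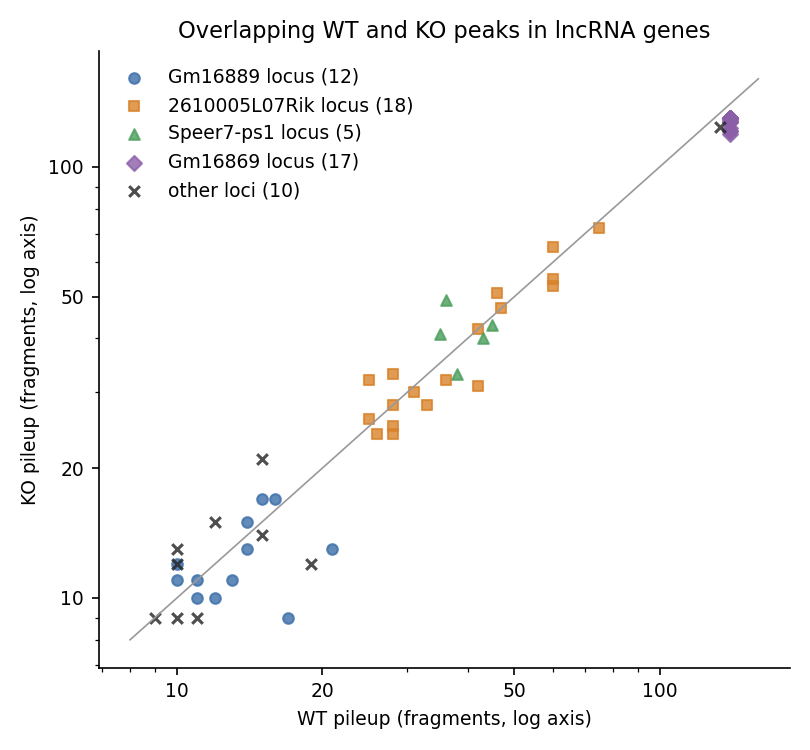
WT pileup (horizontal, log axis) and KO pileup (vertical, log axis), in fragments, of the 62 overlapping pairs of lncRNA peaks, with symbols by locus, the number of pairs in brackets and the grey line at equal pileup. The 17 pairs of Gm16869 sit at 140 in WT, with the Gm13822 pair (a cross) beside them, the 2610005L07Rik and Speer7-ps1 pairs lie in the middle, and the Gm16889 and other pairs lie near the lowest pileup of 9.

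Retention of lncRNA peaks differed with the local background, the level from which the peak caller measured enrichment. Of 435 WT lncRNA peaks with a background up to 1.5 fragments 11 were retained, 2.53% (1.42 to 4.47). The share was 5.69% (2.78 to 11.3) between 1.5 and 3 fragments, 15.9% (8.86 to 26.8) between 3 and 10, and 75% (57.9 to 86.7) above 10, where 24 of 32 were retained. In all other autosomal WT peaks the shares in the same ranges were 0.821, 3.09, 21.8 and 62.1%. The order was the same in both sets, and the intervals overlapped in all ranges but the lowest. There, lncRNA peaks outside the 4 loci had 1.28% (0.547 to 2.96). With the 4 loci included, 14.55% of WT and 47.6% of KO lncRNA peaks had a background above 3 fragments. Of all autosomal peaks 3.82% and 16.4% did. Outside the 4 loci, 2.34% of 471 WT peaks lay between 3 and 10 fragments and 0.212% above 10. In other autosomal WT peaks these shares were 2.56% and 0.929%. For the 66 KO peaks outside the loci they were 16.7% and 1.52%, against 9.97% and 4.91% of other autosomal KO peaks. The higher WT share was thus not seen outside the 4 loci. The part of background in the retention of lncRNA peaks beyond these values was not tested.

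**Figure D4:**
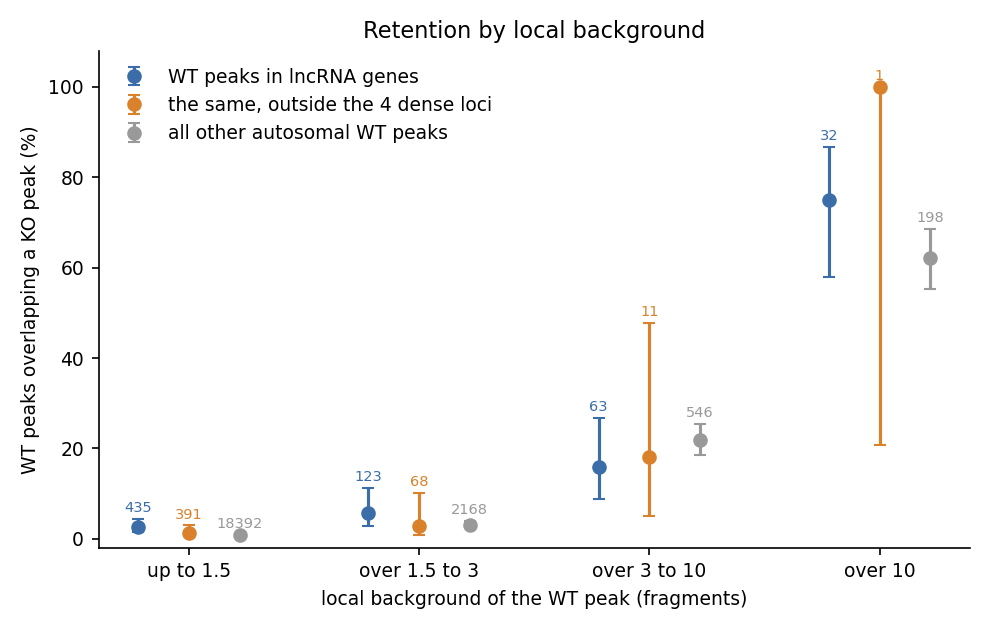
Share of WT peaks that overlapped a KO peak (vertical axis, %) by the local background of the WT peak in fragments (horizontal axis), for lncRNA peaks (blue), lncRNA peaks outside the 4 dense loci (orange) and all other autosomal WT peaks (grey). Points are shares, bars are 95% Wilson intervals for counting error and the numbers above are peaks; in each set the share rises from the lowest range to the highest.

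By sequence copies, retention of lncRNA peaks was highest at intermediate numbers when the 4 dense loci were included. It was 3.57% (1.74 to 7.19) for single-copy peaks, 12.6% (8.87 to 17.6) for over 1 to 10 copies and 17.9% (11.004 to 27.9) for over 10 to 100. Outside those loci 5 of 180 (2.78%), 3 of 93 (3.23%) and 0 of 46 were retained, and 0 of 46 allows up to 6.52%. In all other autosomal WT peaks the shares were 2.33, 5.94 and 2.60%. The dense loci were picked by their KO peaks, so this pattern is not read as a trait of copy number. Above 1000 copies, where dispersed repeats lie, 2 of 129 were retained, 1.55% (0.426 to 5.48). Such high-copy peaks made 19.8% of WT lncRNA peaks and 35.9% of WT peaks outside lncRNA and coding genes. In the KO list 0 of 168 lncRNA peaks had more than 1000 copies, which allows a share of up to 1.79%, against 7.14% of all autosomal KO peaks. Thus the high-copy part of the WT marks in lncRNA genes was almost entirely without an overlapping KO peak. The same held elsewhere: 0.534% of the other autosomal WT peaks above 1000 copies were retained, and 2.33% of all autosomal WT peaks. Of the KO lncRNA peaks, 36 had over 10 to 100 copies and 5 over 100 to 1000. The count sees exact 31-base matches only, so an old, diverged repeat counts as single-copy.

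Across lncRNA genes, 223 of 3669 held a WT member peak, 6.08%, and 58 held a KO member peak, 1.58%. These counts leave out peaks that also touched a coding gene. With every peak in the gene body counted, 276 lncRNA genes held a WT peak, 7.52% (6.71 to 8.42), against 6.66% of autosomal genes of any type and 9.08% of coding genes. By the same count 68 held a KO peak, 1.85% (1.46 to 2.34), against 1.71% and 2.37%. By member peaks, 41 genes held both, 182 only WT peaks and 17 only KO peaks, and 19 held a retained peak. The same counts were not made over all genes, so these are not read as a trait of lncRNA genes. Most lncRNA genes with a WT peak held few: 107 had 1 WT peak, 81 had 2 to 4 and 35 had 5 or more. The share rose with length, from 19 of 2320 genes up to 10 kb (0.819%) to 140 of 1222 genes up to 100 kb (11.5%) and 64 of 127 longer genes (50.4%). A lincRNA gene held a WT member peak in 8.85% of cases (7.39 to 10.6) and a processed_transcript gene in 4.68% (3.91 to 5.59). These 2 gene types were not matched for length. The longer an lncRNA gene, the more often it held a peak. By any peak in the body, the share of lncRNA genes lay between that of all genes and that of coding genes in both lists.

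**Figure D5:**
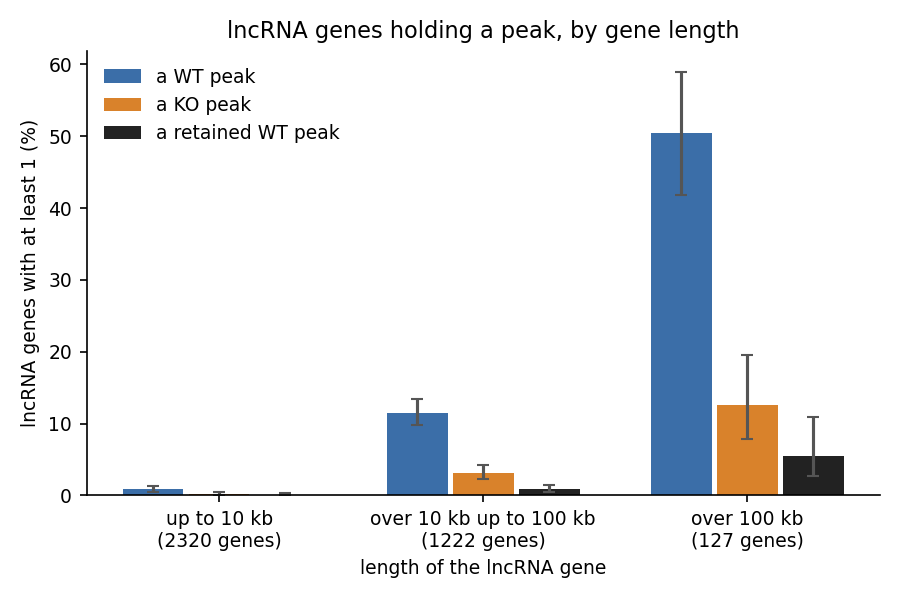
Share of lncRNA genes (vertical axis, %) that held at least 1 WT peak (blue), KO peak (orange) or retained WT peak (black), by gene length (horizontal axis), with 95% Wilson intervals for counting error. The WT share rises from 0.819% of genes up to 10 kb to 50.4% of genes over 100 kb, and the KO share stays below it in each length range.

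By position in the gene, most peaks of either list lay in introns, which make up most of the sequence. Of the WT peaks 33 touched an exon, 5.05% (3.62 to 7.01), and 620 lay in introns, where exons made up 7.06% of the lncRNA gene sequence searched. Of the KO peaks 9 touched an exon, 5.36%. From 2 kb upstream to 0.5 kb downstream of a start lay 20 WT peaks and 5 KO peaks. Of the 20 WT promoter peaks 0 were retained, which allows up to 15% and includes the 7.96% of all WT lncRNA peaks, so promoter peaks are not set apart. The tallest promoter peaks in WT included one of 958 bp at 1700082M22Rik (pileup 17, fold 8.33) and one of 1161 bp at Gm20467 (pileup 17, fold 6.66). Neither overlapped a KO peak.

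Of 5 lists of well-known lncRNAs with 80 symbols in all, 31 were annotated as autosomal lncRNA genes in GENCODE M1. Of these, 4 held a WT peak, 12.9%, beside 6.08% of all lncRNA genes. Airn, Sox2ot and Pax6os1 are over 100 kb, a length at which 50.4% of lncRNA genes held a WT peak. Pvt1 is as long and held none. The 2 shares were not matched for gene length. A KO peak was found in 0 of 31, which allows up to 9.68% and so includes the 1.58% of all lncRNA genes. Airn is the noncoding antisense RNA that silences Igf2r on the paternal allele, and the only 1 of 6 imprinted genes with a peak (Nespas, H19, Meg3, Rian and Mirg had none). Its 5 WT peaks lay 81.8 to 83.9 kb from its start, beyond the body of Igf2r. They were 1353, 325, 348, 273 and 162 bp wide with pileups of 16, 11, 10, 14 and 11, and the nearest KO peak was 399307 bp away. All 5 were single-copy by 31-base words, a count that an old, diverged repeat can also give. They followed closely on one another in 1 compact stretch (chr17:13015281-13018204), in which no KO peak was called.

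The remaining 3 marked genes accompany developmental transcription factors, 3 of 8 genes on that list. Six3os1, which is divergent from and overlaps the forebrain and eye factor gene Six3, held 6 WT peaks between 6.31 and 13.8 kb from its start, 104 to 621 bp wide with pileups of 10 to 14. All 6 were single-copy, and 1 touched an exon. The nearest KO peak was 13504 bp away. Sox2ot, in whose intron the pluripotency and neural factor gene Sox2 lies, held 5 WT peaks with pileups of 9 to 12. Of these, 4 lay 537 to 558 kb from its start, on both sides of Sox2, and were single-copy. The fifth, 263 kb from the start, had 1888 copies. Pax6os1, named for its place opposite the eye factor gene Pax6, held 4 WT peaks with pileups of 9 to 12, of which 3 had 17 to 4634 copies and the fourth, 9.85 kb from its start, was single-copy. Of the 20 WT peaks in these 4 genes 0 were retained, which allows up to 15% and includes the 7.96% of all lncRNA peaks.

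The lists of nuclear and long-lived RNAs (1700020I14Rik, Miat, Tug1, Dleu2, Pvt1, Malat1 and Neat1), of microRNA hosts (Dnm3os and Mir17hg) and of snoRNA hosts (Gas5, Snhg1, Snhg3, Snhg4, Snhg5, Snhg7, Snhg9 and Snhg12) held no peak in either library. This was 0 of 17 genes, which allows up to 17.6%, so with a background of 6.08% their lack of peaks is not set apart from other lncRNA genes. Among developmental genes, Dlx1as, Dlx6os1, Rmst, Hoxb3os and Emx2os had no peak.

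Several genes with many WT peaks had few or no KO peaks, named here after their values were seen. Gm9750 on chromosome 19 held 14 WT peaks with pileups of 9 to 18, and its 4 KO peaks, with pileups of 9 to 12, overlapped none of them. Gm7822 on chromosome 13 held 13 WT and 0 KO peaks, and Gm17683 on chromosome 9 held 9 and 0. B230323A14Rik held 7 and 0, 3110053B16Rik 6 and 0, and D030068K23Rik 6 and 0. These peaks were low, with median WT pileups of 9.5 to 11 in Gm9750, Gm7822, Gm17683, B230323A14Rik and 3110053B16Rik.

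The 4 highest-scoring lost peaks were those of Gm16724, Gm11213, Gm7782 and Gm16742. That of Gm16724 was 22 fragments high, with an enrichment of 8.81-fold and 3 copies, and the nearest KO peak was 1072384 bp away. Gm11213 had a pileup of 20 and 13237 copies within 84 bp, and Gm16742 a pileup of 18 and 2152 copies. Gm7782 had a pileup of 18 over 390 bp, with 8 copies. The strongest lost peaks were thus tall relative to a low background of 1.16 to 1.61 fragments, with folds of 8.21 to 9.07, while the 4 highest-scoring retained peaks had folds of 2.56 to 7.78, and 3 of them backgrounds of 19.1 to 51.3 fragments.

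Of the 168 KO lncRNA peaks 101 met no WT peak, and these are called KO-only. Their median distance to the nearest WT peak was 1338 bp, and 39 lay within 1 kb. In the 4 dense loci 26 of 45 lay within 1 kb of a WT peak, and elsewhere 13 of 56 did, while 21 of those 56 were over 10 kb away. They were narrow, with a median width of 94 bp and a median pileup of 12. The tallest by score was that of Gm7592, 24 fragments high and 5.34-fold enriched, which lay 1386 bp from a WT peak. That of A830012C17Rik was 15 fragments high and 6.67-fold enriched, with the nearest WT peak 47576 bp away. In the 2610005L07Rik locus a KO-only peak of 94 bp was 24 fragments high, at 4.60-fold enrichment. KO-only peaks thus lay mostly beside WT peaks in the dense loci and mostly apart from them elsewhere. The dense loci were picked by their KO peaks and are rich in WT peaks, so this contrast goes with the choice and was not tested.

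The 17 lncRNA genes with a KO peak and no WT peak each held 1. Among them were Gm12239 (299 kb), Gm12680 (269 kb), Gm2716, A830012C17Rik and Gm16094, which at 0.554 kb was the shortest. No gene of the 5 lists was among them.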

How the data were processed

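The authors cut unfixed chromatin with micrococcal nuclease and aligned the single-end reads with Bowtie2 2.2.3 (version from the submitters' processing notes) to the mm9 build. Reads that fitted several places were placed at one of them by chance, and duplicates were removed with Picard. MACS 2.1.0.20140616, named in the file headers, called the peaks of each library, and the caller's options are not given in the sources used here. The deposited pileup is the fragment coverage at a peak's summit. The deposited fold is a ratio, pileup over local background, with 1 added to each. The deposited significance columns hold −log10 p and −log10 q-values, and −log10 q is the score. These served only to describe, rank or filter peaks. Background was recovered as (pileup + 1) / fold − 1. Read totals are not part of the lists, whose lowest pileup was 9. The paper gives the iMEF read number only as a range over libraries, so the depth of each library is unknown. Whether starts count from 0 or 1 is not stated, which leaves 1 bp of uncertainty.

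Gene bodies came from GENCODE M1 on NCBIM37, which is mm9. Copies were counted over 31-base words on both strands. Shares carry 95% Wilson intervals, KO to WT ratios carry the odds of such an interval for the KO part of the summed peaks, and a share of 0 allows 3 counts; all cover counting error only. Named were the 4 highest-scoring lost, retained and KO-only peaks, the 8 genes with the most WT and 6 with the most KO peaks, up to 12 genes with a retained peak by score, and every gene of the 5 lists with a peak. Other genes were named after their values were seen, as were the dense loci, the tandem period and the satellite words. The members and lists were chosen with earlier results of these data known.

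Alternatives covered peak height, score, merging, gene type, gene length, copies and the overlap required. Interval code recovered 200 of 200 overlaps planted in 5000 simulated peaks with 0 false ones and gave the same member and overlap counts as bedtools 2.31.1. Tools were pysam 0.24.0, numba 0.67.0, matplotlib 3.10.9, pandas 2.3.3 and numpy 2.4.6 under Python 3.11.15. The 5 other samples were not used here.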

Additional observations from a re-analysis of the deposited data

How the results depend on the processing

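With 1 library per group nothing here separates library from condition, and peaks near the lowest pileup of 9 can be missed in either list. No paired analysis was possible because WT and KO are single libraries. KO peaks stayed fewer than WT peaks under every alternative run for both numbers.

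As reported, there were 653 WT and 168 KO peaks in 223 and 58 lncRNA genes, with 7.96% of WT peaks retained and 39.9% of KO peaks overlapping a WT peak. Keeping peaks of 15 fragments or more gave 145 WT and 86 KO peaks in 45 and 16 genes, with 23.4% and 55.8%. A score at or above the WT median left 367 and 93 peaks and 29 KO genes. Merging peaks within 1 kb gave 110 KO peaks, with 5.62% and 27.3%. lincRNA genes alone, which is the same as leaving out processed_transcript genes, gave 109 and 28 genes, with 10.5% and 47.7%. Without genes over 100 kb there were 362 and 97 peaks. Single-copy peaks alone numbered 196 and 41 in 104 and 34 genes, with 3.57% and 14.6%. If at least 50% of a peak had to be shared, 4.90% of WT peaks were retained, and if a distance within 1 kb sufficed, 16.7% of WT and 63.1% of KO peaks had a partner. Leaving out the 4 dense loci, an alternative chosen after seeing the data, gave 66 KO peaks, with 2.12% and 15.2%. Without the 2610005L07Rik locus alone 5.70% of WT peaks were retained, and without the Gm16869 locus alone 30.3% of KO peaks overlapped a WT peak. Of the alternative values 36 were labelled as moved and 48 were not, and the causes were not tested. A value without that label could still change, as the WT number did from 653 to 439 with lincRNA genes alone.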

Other observations

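The X chromosome lay outside the rule. By the same overlap it held 19 WT peaks in 13 of its 176 lncRNA genes, and 0 of them overlapped a KO peak. The KO list had 0 peaks in X lncRNA genes. The 13 genes were A230072C01Rik, E330010L02Rik and 11 predicted genes, among them Gm14552 and Gm14643.

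Leaving out peaks that also touched a coding gene changed the picture of the dense loci unevenly. It removed 61 WT and 8 KO peaks from the Gm16889 locus, 22 and 20 from Gm16869, 11 and 20 from the 2610005L07Rik locus, and 1 and 1 from Speer7-ps1. With those peaks included the 2610005L07Rik locus had 50 WT and 51 KO peaks, which covered 9.91% and 7.66% of its length, and 42.0% of its WT peaks overlapped a KO peak.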
